A study of Arabidopsis thaliana with 9 samples.

Results

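The plant U-box (PUB) and Arabidopsis Tóxicos en Levadura (ATL) ubiquitin ligases were examined in shoots of Arabidopsis thaliana exposed to submergence or to flooding with physical flow. Members were the rows of the expression table whose gene name is PUB or ATL followed by digits and at most 1 letter. This name rule found 128 of the 32833 genes listed, 51 PUB and 77 ATL, and used no measured value. All plants were Columbia-0, the common wild-type ecotype, grown for about 4 weeks on peat pellets. Controls were not exposed to either stress. Submerged plants stood under still water 10 cm deep in a plastic container for 30 min, and flooded plants were anchored in an open channel under the same depth with water flowing at 8 L/s for 30 min. Each group held 3 samples, each a pool of rosettes from 10 plants, so differences between single plants and between leaf tissues within a rosette were averaged. The container and the channel differ in more than flow, and these cannot be told apart in this design.

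Ubiquitin ligases (E3) bring a target protein together with a ubiquitin-carrying conjugating enzyme (E2), and the attached ubiquitin often sends the target to the proteasome. PUB proteins hold the E2 with a U-box domain, and many carry ARM repeats that bind targets. ATL proteins hold it with a RING-H2 domain and mostly carry a hydrophobic, membrane-spanning stretch near the N-terminus. Several members of both families are known from responses to pathogen-derived elicitors, abscisic acid (ABA), drought and nutrient status.

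The sequences upstream of 4 up-regulated members are shown because these 4 genes are known as early elicitor or stress-responsive genes, and the members were searched for 3 short elements known from stress-responsive promoters. The elements were the W-box core TTGAC, bound by WRKY factors, CGCGT, a core bound by CAMTA factors, and the G-box CACGTG, bound by bZIP and bHLH factors. Each was searched on both strands of the 250 bases before the annotated gene start in the RefSeq annotation of TAIR10.1, and capitals mark the matches (GTCAA and ACGCG on the strand shown are matches on the other strand). The windows are chr3:19442428-19442677 on the minus strand for PUB22, chr2:15084560-15084809 on the minus strand for PUB23, chr1:24636946-24637195 on the plus strand for PUB20 and chr3:1476710-1476959 on the plus strand for ATL6.
PUB22: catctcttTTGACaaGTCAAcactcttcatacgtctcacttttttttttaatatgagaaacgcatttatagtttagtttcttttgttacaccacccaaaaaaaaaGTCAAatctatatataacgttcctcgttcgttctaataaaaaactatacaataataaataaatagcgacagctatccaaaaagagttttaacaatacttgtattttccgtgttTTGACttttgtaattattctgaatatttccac
PUB23: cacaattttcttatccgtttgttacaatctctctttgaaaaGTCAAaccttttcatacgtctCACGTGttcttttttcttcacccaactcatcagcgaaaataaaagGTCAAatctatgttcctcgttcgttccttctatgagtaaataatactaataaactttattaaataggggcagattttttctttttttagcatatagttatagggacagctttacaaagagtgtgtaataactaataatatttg
PUB20: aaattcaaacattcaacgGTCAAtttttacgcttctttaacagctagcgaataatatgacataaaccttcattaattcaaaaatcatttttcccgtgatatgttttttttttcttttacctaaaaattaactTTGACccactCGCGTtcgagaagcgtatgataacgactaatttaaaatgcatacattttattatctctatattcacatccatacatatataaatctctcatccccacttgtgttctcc
ATL6: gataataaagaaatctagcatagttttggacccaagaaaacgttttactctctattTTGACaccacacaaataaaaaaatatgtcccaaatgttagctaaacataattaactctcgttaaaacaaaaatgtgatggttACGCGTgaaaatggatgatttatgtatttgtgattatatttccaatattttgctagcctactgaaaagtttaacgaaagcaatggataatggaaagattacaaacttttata
PUB22 held 4 matches to TTGAC. PUB23 held 2, with 1 CACGTG. PUB20 held 2 and 1 CGCGT, and ATL6 held 1 together with ACGCGT, which reads as 2 overlapping CGCGT matches, 1 on each strand. PUB22 and PUB23 also shared the run of 15 bases gttcctcgttcgttc, starting 127 bases before the start of PUB22 and 132 bases before that of PUB23, and this run was in 2 of the 27443 windows of protein-coding genes on the 5 nuclear chromosomes. These 2 windows are those of PUB22 and PUB23 themselves, since the run was picked as the longest they share. Other related pairs were searched too and shared 8 to 11 bases. PUB24 shared 10 bases with PUB22 and 8 with PUB23, runs found in 51 and 139 windows. TTGAC was in the windows of 85 of the 128 members (66.4%), of 73.2% of the 41 members up-regulated in at least 1 stress and of 71.4% of the 21 down-regulated in at least 1, against 44.9% of all windows. The share was thus of similar size in members that moved in either direction. CGCGT was in 3 members (2.34%, against 6.87% of all windows), namely PUB20, ATL6 and ATL55, and CACGTG was in 10 members (7.81%, against 6.49%). Of the 41 up-regulated members, 7.32% held CGCGT and 14.6% held CACGTG, and of the 21 down-regulated members 0.0% and 9.52%. These matches describe the letters only, and binding was not measured.

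Expression is given as FPKM, fragments scaled by transcript length and by the mapped total of the sample, so levels can be compared between genes. Fold changes are on the log2(FPKM + 0.1) scale, which understates changes of low transcripts. Transcripts with a mean of at least 0.5 FPKM over the 6 samples of a comparison were tested with limma, and a transcript was called up- or down-regulated at a Benjamini-Hochberg adjusted p under 0.05 over all genes tested. FPKM sums per sample were 752248.71 to 786473.78, and read depth cannot be read from these values. Leaf markers (RBCS1A, RCA and 2 LHCB1 genes) summed to 33770 to 47510 FPKM and root markers to 0.1 to 0.4 FPKM, with EXPA7 at 0 in all samples. Markers of the shoot apex and flower summed to 0.31 to 9.9 FPKM, with values above 3 and under 0.5 in every group and CLV3 at 0 throughout. Their part in the results was not tested. In such bulk tissue, fewer cells of a type and less RNA per cell cannot be told apart.

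Both families were expressed over a wide range. The median of the mean levels over the 9 samples was 7.13 FPKM for PUB and 1.56 FPKM for ATL. Mean levels were 20 FPKM or more in 13 members, 5 to 20 FPKM in 39, 0.5 to 5 FPKM in 40 and below 0.5 FPKM in 36. ATL20, ATL21A, ATL28, ATL50, ATL62, ATL71 and ATL81 were listed at 0 in every sample. The low members included ATL9, a chitin-responsive ligase (0.06 to 0.28 FPKM), and ATL54, known from secondary wall formation (0.11 to 0.46 FPKM), and were not tested. A row named ATL5 (AT3G25520) is by its RefSeq product ribosomal protein L5 and no ligase. It was listed at 494.21 to 690.78 FPKM, far above any other member, and was called in no comparison. A second ATL5 row (AT3G62690) is the RING-type gene and was called up in both stresses.

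Under submergence, 29 of the 91 members tested were up-regulated and 11 were down-regulated, while 9.03% of all 18814 genes tested were up-regulated and 8.45% down-regulated. PUB transcripts moved mostly upward, with 19 of 44 tested up-regulated (43.2%) and 1 down-regulated (2.27%). ATL transcripts moved both ways, with 10 of 47 up-regulated (21.3%) and 10 down-regulated (21.3%). The median log2 fold change was 0.59 for PUB and −0.05 for ATL, against −0.03 over all genes tested. When a control sample was left out, fewer genes were called throughout. Without control 2, for example, 15 members were up-regulated and 3 down-regulated, with 4.72% and 2.59% of all genes. The counts were 18 and 4 without control 1 (5.84% and 3.46% of all genes) and 17 and 3 without control 3 (5.19% and 3.06%), and 6 members were down-regulated without submergence 2 (5.49% of all genes). With quantile normalization, 26 members were up-regulated and 15 down-regulated, and the split over all genes moved to 8.3% up and 11.7% down.

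Under flooding with physical flow, 37 of the 92 members tested were up-regulated and 19 down-regulated, while 11.4% of the 18806 genes tested were up-regulated and 17.2% down-regulated. Of 45 PUB transcripts tested, 26 were up-regulated (57.8%) and 3 down-regulated (6.67%). Of 47 ATL transcripts tested, 11 were up-regulated (23.4%) and 16 down-regulated (34.0%). The median log2 fold change was 0.92 for PUB and −0.26 for ATL, against −0.10 over all genes tested. After median-of-ratios rescaling the split over all genes turned to 13.9% up and 12.2% down, and among the members to 37 up and 17 down. The count of down-regulated members fell to 11, 10 and 9 without controls 1, 2 and 3, where 9.66%, 8.73% and 9.43% of all genes were down-regulated.

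**Figure D1:**
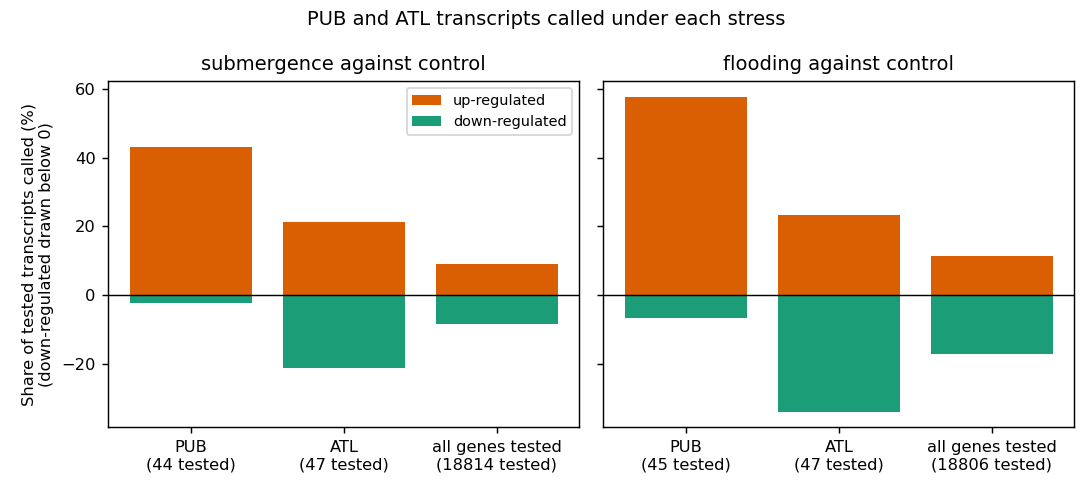
Share of tested transcripts (in %, vertical axis) called up-regulated (drawn above 0) or down-regulated (drawn below 0) among PUB, ATL and all genes tested, for submergence (left) and flooding (right), each against the same controls. The PUB bar above 0 reaches 43.2% under submergence and 57.8% under flooding, while ATL has bars on both sides of 0.

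Both comparisons used the same 3 control samples, so calls in them are not independent. Side by side, 25 members were up-regulated in both (17 PUB and 8 ATL) and 9 were down-regulated in both (8 ATL and PUB8). Of the 91 members tested in both comparisons these were 27.5% and 9.89%, while of all 18666 genes tested in both, 7.09% were up-regulated and 6.49% down-regulated in both. A further 11 members were up-regulated (12.1%, against 4.18% of all genes) and 10 down-regulated (11%, against 10.8%) under flooding with no call under submergence, and PUB21 was up-regulated under flooding but too low to test under submergence. PUB10, PUB32, ATL64 and ATL66 were up-regulated, and ATL67 and ATL68 down-regulated, under submergence alone (4.4% and 2.2%, against 1.97% and 2.01% of all genes). No member was called in opposite directions, 30 had no call in either comparison (33.0%, against 67.4% of all genes), and 36 were tested in neither.

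The up-regulated members were led by PUB23 (AT2G35930, chr2:15082855-15084559, minus strand), which together with PUB22 and PUB24 forms a trio of U-box ligases that dampen pattern-triggered immunity. PUB23 was at 3.72, 2.56 and 5.4 FPKM in the controls, 26.52, 72.19 and 58.81 FPKM in the submerged samples and 93.91, 79.04 and 103.08 FPKM in the flooded samples. The 3 groups did not overlap. The log2 fold change was 3.66 ± 0.41 (SE, n = 3 against 3, limma adjusted p = 0.00222) under submergence and 4.58 ± 0.25 (adjusted p = 1.55e-05) under flooding, the largest among the members tested in both comparisons.

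PUB22 (AT3G52450, chr3:19440617-19442427, minus strand), whose product ubiquitinates the exocyst subunit EXO70B2, was at 3.71, 2.96 and 4.26 FPKM in the controls. It reached 10.59, 15.55 and 21.03 FPKM under submergence and 17.23, 15.43 and 25.72 FPKM under flooding. Both stress groups lay above the controls and overlapped each other, with log2 fold changes of 2.04 ± 0.26 (limma adjusted p = 0.00323) and 2.37 ± 0.21 (adjusted p = 0.00019). PUB24 (AT3G11840), the third of the trio, was at 8.72, 7.26 and 7.53 FPKM in the controls, 8.74, 13.54 and 16.81 FPKM under submergence and 23.84, 14.81 and 17.73 FPKM under flooding. It started from a higher level than PUB22 and PUB23, and only the rise under flooding passed the test (log2 fold change 1.23 ± 0.18, limma adjusted p = 0.00198, against 0.68 ± 0.23, adjusted p = 0.0878, under submergence). PUB23 was thus below PUB24 in every control sample and the highest of the trio in every stressed sample.

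PUB20 (AT1G66160, chr1:24637196-24638608, plus strand), also named CMPG1 after the residues Cys, Met, Pro and Gly, belongs to a group of U-box genes first described in parsley as rapidly elicitor-induced. It rose from 7.99, 8.34 and 10.48 FPKM in the controls to 42.71, 111.4 and 93.24 FPKM under submergence and 110.57, 92.16 and 129.87 FPKM under flooding. The stress groups overlapped each other and lay far above the controls, with log2 fold changes of 3.09 ± 0.34 (limma adjusted p = 0.0021) and 3.61 ± 0.15 (adjusted p = 6.89e-06). Its relative PUB27 (AT5G64660, CMPG2) rose from 5.34, 5.38 and 6.07 FPKM to 14.97, 36.83 and 27.68 FPKM under submergence and 43.6, 31.5 and 41.5 FPKM under flooding. The corresponding log2 fold changes of PUB27 were 2.13 ± 0.30 and 2.76 ± 0.14 (limma adjusted p = 0.00497 and 1.14e-05). PUB21 (AT5G37490), a close relative of PUB20, stayed low, at 0.18 to 0.39 FPKM in the controls, 0.22 to 1 FPKM under submergence and 0.92 to 1.08 FPKM under flooding, where it was up-regulated (log2 fold change 1.65 ± 0.35, limma adjusted p = 0.0121). PUB21 passed the filter of 0.5 FPKM only through its flooded samples (control mean 0.27 FPKM), so its call is not independent of the filter. It is counted among the members up-regulated under flooding.

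**Figure D2:**
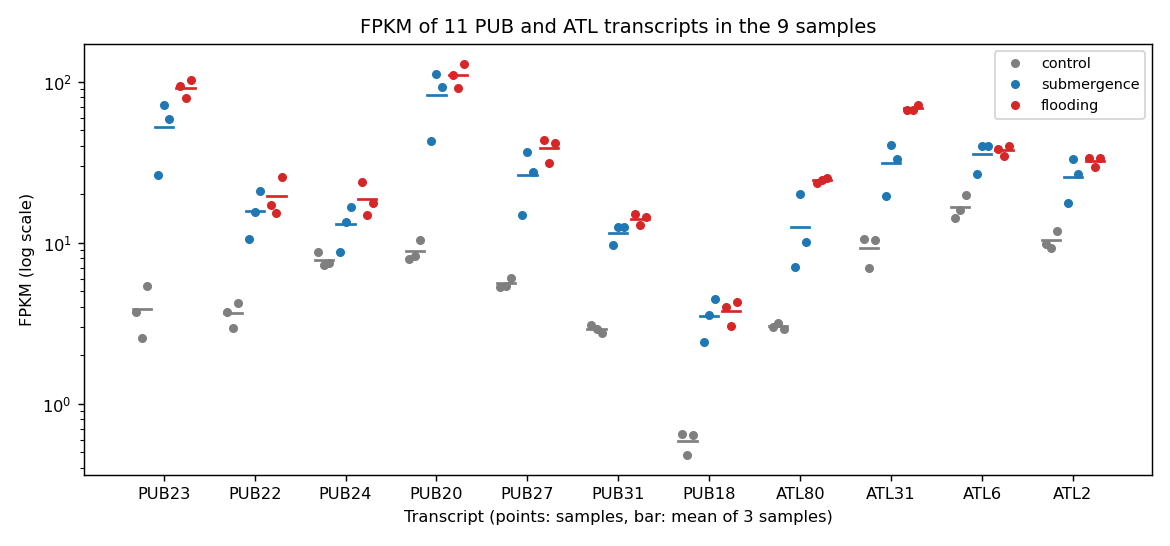
FPKM (log axis) of 11 PUB and ATL transcripts up-regulated in at least 1 stress, with 1 point per sample and a bar at the mean of the 3 samples of control (grey), submergence (blue) and flooding (red). PUB23 moves from a control mean of 3.89 FPKM to 52.5 FPKM under submergence and 92.0 FPKM under flooding, and submergence 1 is the lowest blue point of all 11 transcripts.

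The submerged samples were uneven. Submergence 1 was the lowest of the 3 submerged samples for 21 of the 29 members up-regulated under submergence, PUB20, PUB23, PUB27 and ATL80 among them. Under flooding, sample 2 was the lowest for 25 of the 37 up-regulated members and sample 3 the highest for 21. These counts were made for members only, and whether other up-regulated genes rank the samples alike was not tested. The median SD of log2 values within a group was 0.15 in controls, 0.28 under submergence and 0.21 under flooding for the members, against 0.11, 0.17 and 0.19 over all genes. Without submergence 1, 33 members were up-regulated under submergence, with 10.8% of all genes.

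PUB12 and PUB13 are recruited through the co-receptor BAK1 to ubiquitinate the flagellin receptor FLS2. PUB13 (AT3G46510) was among the highest U-box transcripts, at 58.66 to 67.56 FPKM in controls, 58.38 to 61.29 FPKM under submergence and 51.22 to 56.35 FPKM under flooding, and had no call (limma adjusted p = 0.587 and 0.0763). PUB12 (AT2G28830), present at a far lower level, rose from 2.17, 2.12 and 1.61 FPKM to 2.92, 3.03 and 3.1 FPKM under submergence and to 3.84, 3.31 and 3.6 FPKM under flooding. The groups of PUB12 did not overlap, with log2 fold changes of 0.60 ± 0.16 and 0.84 ± 0.17 (limma adjusted p = 0.0412 and 0.00856), but the call under submergence was lost without any 1 of the 6 samples (adjusted p up to 0.113).

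PUB25 and PUB26, which with the kinase CPK28 limit the amount of the immune kinase BIK1, were both up-regulated in both stresses. PUB25 (AT3G19380) was at 3.29, 3.28 and 2.82 FPKM in controls, 6.2, 6.12 and 6.01 FPKM under submergence and 6.5, 6.83 and 8.14 FPKM under flooding. Its log2 fold changes were 0.95 ± 0.11 and 1.17 ± 0.13 (limma adjusted p = 0.00251 and 0.000678). PUB26 (AT1G49780) was at 5.31, 5.4 and 4.24 FPKM in controls, 9.92, 9.14 and 9.37 FPKM under submergence and 9.76, 8.48 and 10.26 FPKM under flooding. Its log2 fold change was 0.92 under both stresses (SE 0.12 and 0.13, limma adjusted p = 0.00361 and 0.00218). All stressed samples of both transcripts lay above their controls, and submergence 1 was the highest of the submerged samples for both.

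Among U-box genes known from ABA and drought responses, PUB18 and PUB19, a closely related pair that restrain ABA-dependent drought tolerance, had different calls under submergence, a difference between the genes that was not tested. PUB18 (AT1G10560) was at 0.65, 0.48 and 0.64 FPKM in controls, 2.41, 3.58 and 4.49 FPKM under submergence and 3.97, 3.06 and 4.31 FPKM under flooding. PUB18 was up-regulated in both (log2 fold change 2.35 ± 0.26 and 2.49 ± 0.22, limma adjusted p = 0.00229 and 0.000163). PUB19 (AT1G60190) was at 2.55, 1.68 and 0.93 FPKM in controls and 1.17, 2.68 and 2.24 FPKM under submergence, ranges that overlap (adjusted p = 0.724). All 3 flooded samples were higher, at 5.79, 5.63 and 6.1 FPKM, and this rise passed the test (log2 fold change 1.81 ± 0.32, limma adjusted p = 0.00492).

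PUB11 (AT1G23030) rose from 7.41, 9.15 and 9.41 FPKM to 26.19, 47.22 and 32.72 FPKM under submergence and 27.22, 33.53 and 30.37 FPKM under flooding, with log2 fold changes of 1.98 ± 0.21 and 1.80 ± 0.13 (limma adjusted p = 0.00197 and 5.15e-05). Its relative PUB10 (AT1G71020), which targets the jasmonate factor MYC2, was at 11.37, 12.44 and 12.48 FPKM in controls and 17.85, 15.42 and 18.93 FPKM under submergence. Under flooding PUB10 lay at the control level, at 12.65, 11.61 and 11.74 FPKM (adjusted p = 0.942). The rise of PUB10 under submergence was small (log2 fold change 0.52 ± 0.10, limma adjusted p = 0.0154), and its call was lost without any 1 of the 3 controls (adjusted p up to 0.0627). PUB44 (AT1G20780, SAUL1), which targets the ABA biosynthesis enzyme AAO3 and delays senescence, rose from 11.44 to 13.97 FPKM in controls to 18.53 to 23.23 FPKM under submergence and 18.84 to 22.14 FPKM under flooding (log2 fold change 0.71 ± 0.12 and 0.66 ± 0.11, limma adjusted p = 0.00834 and 0.00412).

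Abundant U-box transcripts rose as well. PUB9 (AT3G07360) was at 36.09, 43.76 and 48.31 FPKM in controls, 64.72, 98.18 and 87.08 FPKM under submergence and 83.47, 92.37 and 92.36 FPKM under flooding (log2 fold change 0.95 ± 0.17 and 1.07 ± 0.12, limma adjusted p = 0.0124 and 0.000541). PUB17 (AT1G29340), a positive regulator of cell death in defence, was at 33.4, 33.86 and 37.0 FPKM in controls, 43.48, 57.22 and 59.04 FPKM under submergence and 74.17, 63.91 and 76.45 FPKM under flooding. Its 3 groups did not overlap (log2 fold change 0.60 ± 0.13 and 1.04 ± 0.10, limma adjusted p = 0.02 and 0.000209). The calls under submergence were lost for PUB9 without control 2 (adjusted p = 0.0505) and for PUB17 without any control or without submergence 2 or 3 (adjusted p up to 0.0821).

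PUB31 (AT5G65920), an ARM-repeat member, had the smallest adjusted p of all members under submergence. It was at 3.09, 2.93 and 2.76 FPKM in controls, 9.74, 12.53 and 12.52 FPKM under submergence and 15.11, 12.85 and 14.43 FPKM under flooding (log2 fold change 1.94 ± 0.13 and 2.23 ± 0.11, limma adjusted p = 0.000703 and 1.06e-05). PUB54 (AT1G01680) did not overlap between any of the 3 groups and went from 2.15, 1.31 and 1.72 FPKM to 3.12, 4.2 and 5.96 FPKM and then to 10.35, 7.62 and 10.16 FPKM (log2 fold change 1.29 ± 0.27 and 2.39 ± 0.21, limma adjusted p = 0.0206 and 0.000154). Its call under submergence was lost without control 2, control 3 or submergence 2 (adjusted p up to 0.0793). PUB54 lies 207 bases from PUB56, which had no call. PUB2 (AT5G67340), another ARM-repeat member, was at 3.09, 2.81 and 2.26 FPKM in controls and 3.63, 5.57 and 7.96 FPKM under submergence, a difference just short of the threshold (limma adjusted p = 0.0529). It was up-regulated under flooding, at 12.31, 7.86 and 8.49 FPKM (log2 fold change 1.76 ± 0.20, limma adjusted p = 0.000623).

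The U-box genes that fell were few. PUB8 (AT4G21350) was at 19.28, 18.07 and 20.61 FPKM in controls, 11.55, 10.93 and 12.06 FPKM under submergence and 9.28, 8.86 and 12.33 FPKM under flooding. All 6 stressed samples lay below the controls (log2 fold change −0.74 ± 0.09 and −0.93 ± 0.14, limma adjusted p = 0.00247 and 0.0023). PUB14 (AT3G54850) fell under flooding, from 14.35 to 15.68 FPKM in controls to 9.62 to 12.03 FPKM (log2 fold change −0.44 ± 0.11, limma adjusted p = 0.0193), a call lost without any 1 of the 3 controls (adjusted p up to 0.0783). PUB62 was the other down-regulated member.

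Among the ATL genes, ATL80 (AT1G20823, chr1:7238693-7239698, plus strand), known as a negative regulator of phosphate mobilization and cold tolerance, showed the largest rise under flooding. It was at 3.01, 3.18 and 2.92 FPKM in controls, 7.09, 20.25 and 10.12 FPKM under submergence and 23.51, 24.48 and 25.39 FPKM under flooding. The groups did not overlap, and the submerged samples spread widely while the flooded samples lay close together. The log2 fold change was 1.87 ± 0.34 (limma adjusted p = 0.0127) under submergence and 2.97 ± 0.09 (adjusted p = 3.68e-06) under flooding. The call under submergence was lost without any 1 of the controls (adjusted p up to 0.0556).

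ATL31 (AT5G27420, chr5:9683988-9685742, plus strand) and ATL6 (AT3G05200), a related pair that control the response to the carbon/nitrogen balance by targeting 14-3-3 proteins and that also act in defence, were both up-regulated. ATL31 was at 10.56, 7.01 and 10.49 FPKM in controls, 19.63, 40.81 and 33.32 FPKM under submergence and 66.9, 66.86 and 72.06 FPKM under flooding (log2 fold change 1.69 ± 0.29 and 2.89 ± 0.16, limma adjusted p = 0.00954 and 1.71e-05). ATL6 was at 14.3, 15.91 and 19.7 FPKM in controls, 26.67, 40.07 and 40.08 FPKM under submergence and 38.14, 34.72 and 40.21 FPKM under flooding (log2 fold change 1.08 ± 0.19 and 1.19 ± 0.13, limma adjusted p = 0.011 and 0.000524). ATL31 was below ATL6 in every control sample and above it in every flooded sample. The call of ATL6 under submergence was lost without control 2 (adjusted p = 0.0511).

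ATL2 (AT3G16720), a rapidly chitin-induced gene, was at 9.88, 9.35 and 11.92 FPKM in controls, 17.56, 33.01 and 26.83 FPKM under submergence and 33.62, 29.6 and 33.87 FPKM under flooding. Both stress groups lay above the controls (log2 fold change 1.27 ± 0.23 and 1.64 ± 0.12, limma adjusted p = 0.0115 and 5.57e-05), and the call under submergence was lost without control 2 (adjusted p = 0.0541). The neighbours ATL40 and ATL41, 245 bases apart on chromosome 2, were both up-regulated under flooding. ATL40 (AT2G42350) was at 0.27 to 0.46 FPKM in controls, 0.58 to 1.55 FPKM under submergence and 1.05 to 1.92 FPKM under flooding (flooding log2 fold change 1.72 ± 0.33, limma adjusted p = 0.00767). The controls of ATL40 lay under the filter of 0.5 FPKM, so it too was tested only through its stressed samples. ATL41 (AT2G42360) was at 1.12 to 1.36 FPKM, 1.97 to 4.78 FPKM and 5.36 to 5.71 FPKM in the 3 groups (log2 fold change 1.26 ± 0.31 and 2.07 ± 0.14, limma adjusted p = 0.0324 and 4.59e-05), and its call under submergence was lost without any 1 of the controls or without submergence 2 or 3 (adjusted p up to 0.116).

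The pair ATL44 and ATL45, also named RHA3A and RHA3B, attach single ubiquitin units to BIK1 and moved in opposite directions. ATL44 (AT2G17450) was at 13.8, 16.1 and 18.91 FPKM in controls, 9.03, 9.61 and 11.89 FPKM under submergence and 9.72, 7.0 and 8.25 FPKM under flooding (log2 fold change −0.67 ± 0.15 and −0.96 ± 0.16, limma adjusted p = 0.025 and 0.00391). ATL45 (AT4G35480) was at 3.22, 4.06 and 3.54 FPKM, 6.07, 6.8 and 10.2 FPKM and 12.92, 12.16 and 15.42 FPKM (log2 fold change 1.04 ± 0.20 and 1.87 ± 0.14, limma adjusted p = 0.0157 and 6.33e-05). ATL44 was therefore the higher of the pair in every control sample and the lower in every flooded sample. Under submergence both calls depended on single samples, for ATL44 on control 2, control 3 and submergence 2 (adjusted p up to 0.0904 without them) and for ATL45 on controls 1 and 3 (up to 0.0629).

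ATL75, ATL76, ATL10 and ATL78 lie in a row on chromosome 1 and differed in their calls. ATL75 (AT1G49200) was at 32.27, 30.9 and 37.02 FPKM in controls and 43.55, 22.4 and 30.55 FPKM under submergence, which overlap, and at 12.67, 16.09 and 14.06 FPKM under flooding (log2 fold change −1.22 ± 0.12, limma adjusted p = 0.000254). ATL76 (AT1G49210), 2720 bases away, rose from 2.11, 2.05 and 2.97 FPKM to 8.02, 10.63 and 11.14 FPKM under submergence and only to 5.29, 5.62 and 3.49 FPKM under flooding (log2 fold change 2.02 ± 0.19 and 0.98 ± 0.23, limma adjusted p = 0.00132 and 0.0171). The flooding call of ATL76 was lost without control 1, control 2 or flooding 1 (adjusted p up to 0.0684). ATL78 (AT1G49230), known from cold and drought responses, had no call, at 10.65 to 13.71 FPKM, 10.58 to 12.7 FPKM and 7.3 to 10.42 FPKM, and ATL10 was too low to test.

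Of the 18 ATL genes down-regulated in at least 1 stress, ATL52 (AT5G17600) showed the largest fall in both. It was at 7.5, 7.57 and 8.11 FPKM in controls, 4.58, 2.78 and 3.4 FPKM under submergence and 2.52, 3.09 and 2.9 FPKM under flooding (log2 fold change −1.11 ± 0.18 and −1.42 ± 0.12, limma adjusted p = 0.00788 and 0.000144). ATL79 (AT5G47610), the highest of those down-regulated in both stresses, was at 30.15, 27.09 and 33.03 FPKM, 21.68, 15.11 and 12.12 FPKM and 9.56, 16.25 and 12.15 FPKM (log2 fold change −0.92 ± 0.20 and −1.27 ± 0.19, limma adjusted p = 0.0242 and 0.00223). ATL3 (AT1G72310) fell from 6.7 to 7.32 FPKM to 2.75 to 4.76 FPKM and 2.62 to 3.25 FPKM (log2 fold change −0.92 ± 0.19 and −1.26 ± 0.12, limma adjusted p = 0.0203 and 0.0003). For these 3 genes the stressed samples were below every control, and the calls of ATL79 and ATL3 under submergence were lost without any 1 of the controls or without submergence 2 (adjusted p up to 0.0961 and 0.0841).

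ATL49, ATL63 and ATL65 also fell in both stresses, by smaller or similar steps. ATL49 (AT2G18650) was at 1.44 to 1.63 FPKM in controls, 0.63 to 0.74 FPKM under submergence and 0.59 to 0.88 FPKM under flooding (log2 fold change −1.02 in each, limma adjusted p = 0.0155 and 0.018). ATL65 (AT3G18930) was at 13.73 to 15.02 FPKM, 8.89 to 10.07 FPKM and 7.26 to 10.52 FPKM (log2 fold change −0.62 and −0.66, limma adjusted p = 0.00498 and 0.0136), and ATL63 (AT5G58580) at 5.46 to 6 FPKM, 3.56 to 4.48 FPKM and 3.57 to 3.71 FPKM (log2 fold change −0.55 and −0.66, limma adjusted p = 0.0241 and 0.00376). No stressed sample of these genes reached the lowest control. The calls of ATL49 in both stresses were lost without any 1 of the controls (adjusted p up to 0.0714 and 0.0814), that of ATL63 under submergence without any control or submergence 2 or 3 (up to 0.104) and that of ATL65 under flooding without control 3 (0.0562).

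Falls called under flooding and not under submergence included ATL1 (AT1G04360), whose overexpression is known to cause cell death. ATL1 was at 4.39, 3.45 and 2.33 FPKM in controls, 3.48, 1.56 and 2.82 FPKM under submergence and 1.4, 1.39 and 1.35 FPKM under flooding (flooding log2 fold change −1.19 ± 0.24, limma adjusted p = 0.00878). ATL8 (AT1G76410), a sugar starvation-responsive gene, was at 6.12, 6.14 and 6.65 FPKM in controls, 5.03, 8.25 and 5.4 FPKM under submergence and 2.04, 3.49 and 3.21 FPKM under flooding (flooding log2 fold change −1.12 ± 0.20, limma adjusted p = 0.00573). In both genes the submerged samples overlapped the controls and the flooded samples did not. ATL4, ATL13 and ATL15 were also called (log2 fold change −1.23, −1.14 and −0.79, limma adjusted p = 0.0307, 0.0325 and 0.0314), but each call was lost without 1 of several samples, among them controls 2 and 3 for all 3 genes (adjusted p up to 0.131, 0.108 and 0.119). Their submergence log2 fold changes were −0.372, −0.843 and −0.665 (limma adjusted p = 0.441, 0.0986 and 0.157). The difference between the stresses was not called for these 3 genes (limma adjusted p = 0.396, 0.818 and 0.904). The flooded samples of ATL4 averaged 0.497 FPKM, just under the filter of 0.5 FPKM. ATL4 thus passed the filter under flooding only through its controls (mean 1.263 FPKM). ATL13 was called under submergence with the replicate number as a block or without submergence 1, and not under the other alternatives. The ABA-related ATL43 (AT5G05810) was at 0.99 to 1.22 FPKM in controls and 0.47 to 0.71 FPKM under flooding and missed the threshold (log2 fold change −0.86 ± 0.27, limma adjusted p = 0.0521).

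A few changes were called under submergence alone. ATL66 (AT3G11110) was at 1.2, 1.9 and 1.45 FPKM in controls, 3.69, 3.3 and 3.38 FPKM under submergence and 1.92, 2.41 and 2.33 FPKM under flooding (submergence log2 fold change 1.16 ± 0.19, limma adjusted p = 0.00823). Its submerged samples were thus higher than all the others. The flooded samples of ATL66 also lay above the controls (log2 fold change 0.537, limma adjusted p = 0.104). So did those of ATL64 (log2 fold change 0.611, limma adjusted p = 0.0669). The difference between the stresses was not called for ATL66 or ATL64 (limma adjusted p = 0.183 and 0.796). ATL67 (AT2G46160) and ATL68 (AT3G61550) fell (log2 fold change −0.56 and −0.60, limma adjusted p = 0.0318 and 0.0173), and both calls were lost without any 1 of the controls (adjusted p up to 0.125 and 0.0822), that of ATL67 also without submergence 2 or 3. Under flooding ATL68 fell by more and just missed the threshold (log2 fold change −0.78, limma adjusted p = 0.0543). Every flooded sample of ATL68 lay below the controls. The flooding log2 fold change of ATL67 was −0.37 (limma adjusted p = 0.231).

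**Figure D3:**
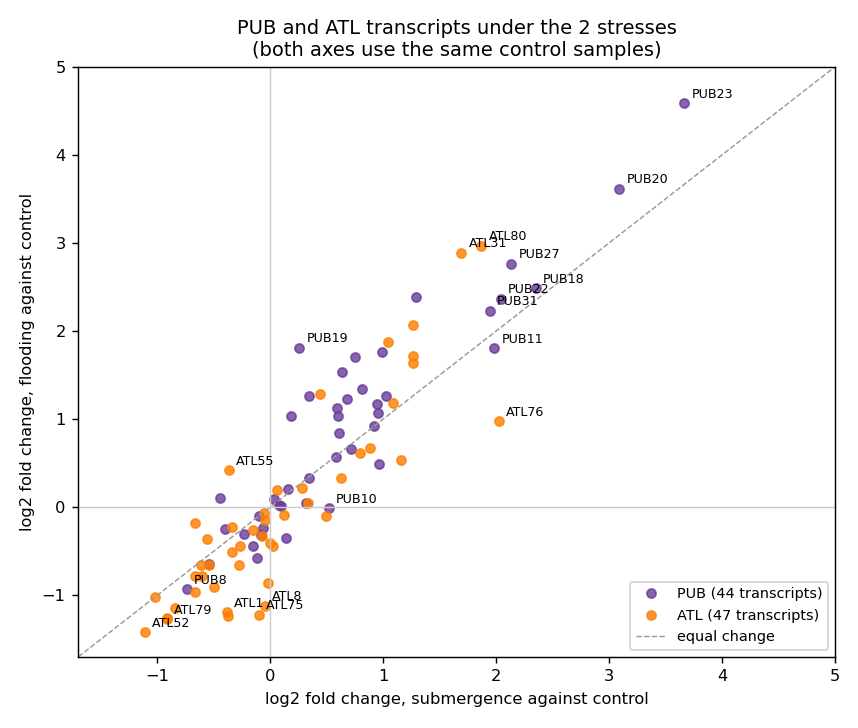
Log2 fold change of 91 PUB and ATL transcripts under submergence (horizontal axis) and under flooding (vertical axis), each against the same 3 control samples, with 1 point per transcript (PUB purple, ATL orange) and a dashed line at equal change. PUB23 lies at 3.66 and 4.58 and PUB20 at 3.09 and 3.61, and ATL76 (2.02 and 0.98) lies below the line while PUB19, ATL75 and ATL8 stand apart from it.

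The direct comparison of flooding with submergence asked which members responded to the flowing water more, or less, than to still water. No member was called in either direction (0.0% of the 18864 genes tested were up-regulated and 0.0% down-regulated), and the smallest adjusted p of a member was 0.13. At an unadjusted p under 0.05, 17 members were higher under flooding, while 4.88% of all genes were higher, and 12 were lower, while 9.85% of all genes were lower. The 17 were 11 PUB of 45 tested (24.4%) and 6 ATL of 47 (12.8%). The 12 lower members were 4 PUB (8.89%) and 8 ATL (17.0%), so more ATL were lower than higher under flooding. When all 9 samples shared 1 fit, PUB5 was called higher, and PUB10 and ATL75 lower, under flooding, and 0.467% of all genes were called higher and 0.737% lower.

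PUB5 (AT4G36550), an ARM-repeat member, had the smallest p of this comparison. It was at 3.34, 3.42 and 3.28 FPKM in controls, 3.29, 4.23 and 3.96 FPKM under submergence and 6.23, 7.09 and 7.59 FPKM under flooding. The flooded samples stood above the other 6, with a log2 fold change of 0.85 ± 0.15 against submergence (limma, unadjusted p = 0.000671, adjusted p = 0.13) and 1.03 ± 0.12 against the controls (adjusted p = 0.00064). PUB19 followed with 1.55 ± 0.29 (limma adjusted p = 0.133), then PUB10 with −0.53 ± 0.11, ATL76 with −1.05 ± 0.22 and ATL31 with 1.20 ± 0.25 (adjusted p of 0.162 to 0.163). In all 5 the flooded and submerged samples did not overlap, which adds no support since they were picked by their p in this comparison. ATL75 was lower under flooding by a log2 fold change of −1.12 ± 0.24 and ATL8 by −1.07 ± 0.27 (limma adjusted p = 0.163 and 0.182), also without overlap. Of the 92 members tested, 19 were higher and 13 lower under flooding with no overlap, and of all 18864 genes 1169 and 2910.

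**Figure D4:**
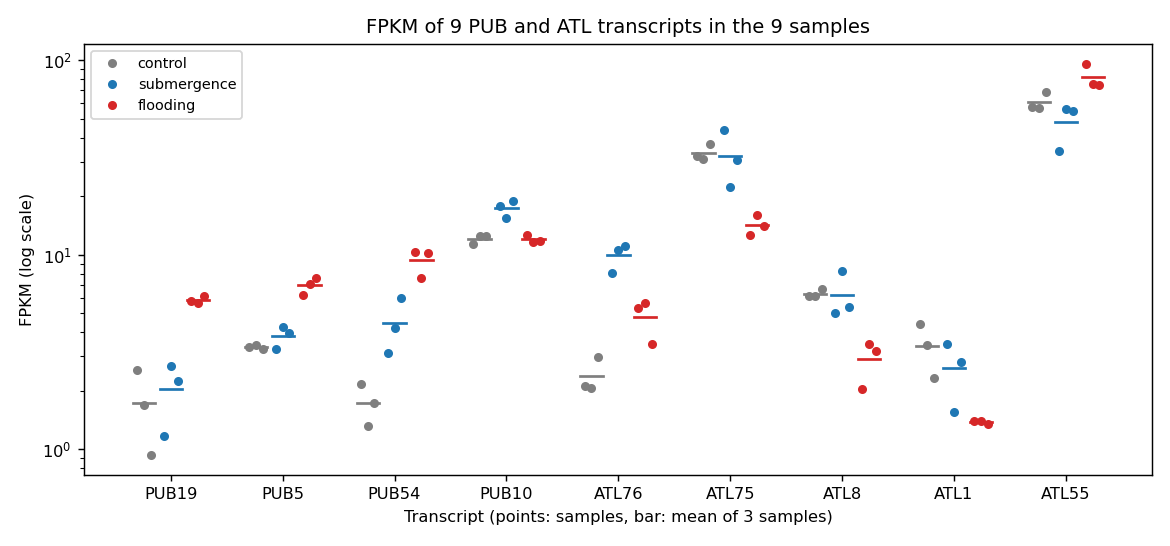
FPKM (log axis) of 9 PUB and ATL transcripts, with 1 point per sample and a bar at the mean of the 3 samples of control (grey), submergence (blue) and flooding (red). The flooded samples of PUB19 (5.63 to 6.1 FPKM) and PUB5 (6.23 to 7.59 FPKM) lie above all others, those of ATL75 (12.67 to 16.09 FPKM) lie below all others, and ATL76 is highest under submergence.

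ATL55 (AT5G10380), known as RING1 and linked to programmed cell death, was the most abundant ATL ligase and the only member with every submerged sample below and every flooded sample above the controls. It was at 57.86, 57.05 and 68.79 FPKM in controls, 34.19, 55.91 and 54.89 FPKM under submergence and 96.22, 75.39 and 74.38 FPKM under flooding. The rise under flooding was small (log2 fold change 0.42 ± 0.13, limma adjusted p = 0.0466), and its call was lost without any 1 of the controls or without flooding 1 or 2 (adjusted p up to 0.155). The difference under submergence was not called (adjusted p = 0.244). Over all genes tested, 4122 of 18814 had every submerged sample below the controls. Under flooding, 2975 of 18806 had every flooded sample above them. Genes with both were not counted, so whether the pattern of ATL55 is unusual was not tested.

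Transcripts of proteins that work with these ligases were followed in a list of 16 known substrates, partners and regulators. All 16 transcripts were tested, and protein amounts were not measured. Under submergence 8 were up-regulated and none down-regulated (median log2 fold change 0.42), against 9.03% up-regulated, 8.45% down-regulated and a median of −0.03 over all genes tested. Under flooding 11 were up-regulated and none down-regulated (median 0.76), against 11.4%, 17.2% and a median of −0.10. The list was chosen with earlier results of these data known. CPK28, the kinase that acts with PUB25 and PUB26, was at 26.6 ± 1.77 FPKM (SD, n = 3) in controls, 168.2 ± 51.7 FPKM under submergence and 323.4 ± 44.8 FPKM under flooding. MPK3, the kinase that phosphorylates PUB22, was at 67.0 ± 8.76 FPKM, 288.3 ± 90.2 FPKM and 516.4 ± 33.8 FPKM. Both were up-regulated in both stresses. So were the PUB22 target EXO70B2 (20.9 ± 1.62, 43.5 ± 13.7 and 65.8 ± 8.56 FPKM), the PUB18 target EXO70B1 (35.3 ± 1.52, 84.3 ± 21.6 and 129.0 ± 9.14 FPKM), and LYK5, a chitin receptor kinase targeted by PUB13 (3.34 ± 0.47, 12.9 ± 2.66 and 24.3 ± 2.10 FPKM). MYC2, the target of PUB10, was called under flooding only (49.2 ± 8.47, 61.7 ± 2.63 and 121.5 ± 15.4 FPKM). The receptor gene FLS2 was called under submergence only (7.48 ± 0.36, 14.2 ± 3.99 and 10.1 ± 2.11 FPKM, limma adjusted p = 0.019 and 0.0799), and the difference between the stresses was not called for either gene. RPN12A, AAO3, CERK1 and the 14-3-3 gene GRF1 had no call in either stress. The count under submergence was 4 to 5 without any 1 of the controls, where 4.72% to 5.84% of all genes were up-regulated. It was 5 without submergence 2 or 3 (7.06% and 6.9% of all genes) and 12 without submergence 1 (10.8%).

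Conjugating enzyme (E2) genes, ubiquitin genes and related small RING-H2 genes were also followed. Of 33 E2 genes tested, 3 were up-regulated and 1 down-regulated under submergence (9.09% and 3.03%, against 9.03% and 8.45% of all genes). Under flooding 2 were up-regulated and 4 down-regulated (6.06% and 12.1%, against 11.4% and 17.2% of all genes). Among 5 ubiquitin genes tested, UBQ11 rose in both stresses (300.4 ± 5.92, 446.6 ± 30.8 and 585.8 ± 85.2 FPKM), and UBQ4 fell in both (39.5 ± 1.79, 30.9 ± 2.74 and 28.5 ± 4.51 FPKM). UBQ3 fell under flooding (528.5 ± 50.5 FPKM in controls and 305.1 ± 8.60 FPKM). Under submergence UBQ3 just missed the threshold (389.0 ± 54.4 FPKM, log2 fold change −0.446, limma adjusted p = 0.051). The difference of UBQ3 between the stresses was not called (limma adjusted p = 0.289). Among 5 other small RING-H2 genes of the RHA type, RHA2A, a positive regulator of ABA signalling, fell in both stresses, from 16.0 ± 0.94 FPKM to 4.46 ± 1.20 FPKM and 3.31 ± 0.37 FPKM. RHA2B also fell in both (8.42 ± 1.34, 3.73 ± 0.18 and 3.32 ± 0.91 FPKM). RHA1B fell under flooding (12.4 ± 1.44 FPKM in controls and 7.25 ± 1.07 FPKM), and RHA4A rose under submergence (7.29 ± 1.03 FPKM in controls and 10.97 ± 1.09 FPKM). RHA1B had no call under submergence (limma adjusted p = 0.116) and RHA4A none under flooding (limma adjusted p = 0.803). The difference between the stresses was not called for RHA1B or RHA4A. RHA1A had no call.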

How the data were processed

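Poly(A) RNA from 9 shoot samples was prepared with a stranded kit and sequenced as paired ends. Per the methods of the study, reads were trimmed, mapped to TAIR10 with STAR and counted with featureCounts, while the table is named after RSEM, so the counting tool is not settled. The authors deposited FPKM values with 2 decimals for 32833 genes, with no counts, so no count test or counting interval was made. Read totals are not part of that table and were not used here. The submitters' processing notes name DESeq2 1.20.0, whose results were not used. Table columns are headed Control, Stress1 and Stress2. Which of these stresses is which was read from panel titles of the authors' own plots, and a swap would exchange every statement about submergence and flooding.

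Each pair of groups was fitted on its 6 samples with limma 3.58.1 (R 4.3.3) on log2(FPKM + 0.1), with a mean-dependent prior variance. Genes averaging under 0.5 FPKM were left out. With 3 samples against 3, an exact permutation test of 1 gene cannot give a two-sided p under 0.1, so none is given. The methods call the replicates independent pools. Alternatives were a pseudocount of 1, no filter, a minimum of 2 FPKM, median-of-ratios and quantile scaling, a constant prior variance (no trend), 1 fit of all 9 samples, a minimum fold change of 2, the replicate number as a block, and leaving out each sample.

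The members and gene lists were chosen with earlier results of these data known. Transcripts described are those with a known role, the called members with the largest change (up to 15 up and 10 down per stress, mean of at least 1 FPKM in a group), the 5 with the smallest p between the stresses and the 3 highest of each family. Members named outside this rule, such as PUB62, were named after their values were seen. Gene coordinates in the table equalled those of the RefSeq annotation (TAIR10.1) for all 128 members. Python 3.11.15 was used for tables and motif searches.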

Additional observations from a re-analysis of the deposited data

Results flagged for a closer look

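ATL55 stood out because its submerged samples all lay below the controls and its flooded samples all lay above them. The log2 fold change of flooding against submergence was 0.786 (limma, unadjusted p = 0.00789, adjusted p = 0.194), so this difference did not pass the adjusted threshold.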

How the results depend on the processing

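No fold change of a described transcript with an unadjusted p under 0.05 changed sign under any alternative, and of 76 that were called, 51 kept the call under every alternative, 25 lost it without at least 1 sample and 8 under another alternative. With a fold change of at least 2 required, 16 members were up-regulated and 2 down-regulated under submergence (4.65% and 1.15% of all genes), and 9 down-regulated under flooding (2.42%). With all 9 samples in 1 fit, 1 member was called higher and 2 lower under flooding than under submergence. Leaving out each sample gave 15 to 33 up-regulated and 3 to 12 down-regulated members under submergence, 31 to 39 and 9 to 23 under flooding, and 0 to 0 between the stresses. The all-gene shares ranged over 4.72% to 10.8% up and 2.59% to 11.7% down under submergence, and 8.47% to 14.3% and 8.73% to 18.2% under flooding. Such fits have 5 samples. The replicate block gave 26 up-regulated and 10 down-regulated members under submergence (7.92% and 5.37% of all genes), 35 and 20 under flooding (10.7% and 13.3%) and 0 and 0 between the stresses. Samples with the same number deviated from their group means with correlations of −0.149 to 0.472, and those with unlike numbers with −0.503 to 0.366. The highest was that of submergence 3 with flooding 3. These ranges do not settle whether the numbers mark pairs, so the numbers served as a block only in this alternative. The 3 down-regulated PUB under flooding became 5 with all 9 samples in 1 fit, where 17.8% of all genes were down-regulated. They became 2 with median-of-ratios scaling or the block (12.2% and 13.3% of all genes). The 1 under submergence became 3 with quantile normalization (11.7% of all genes). The 8 up-regulated partner genes under submergence became 5 without the trend, where 8.13% of all genes were up-regulated. Under submergence the calls of ATL41, ATL44, ATL67, ATL68 and PUB12, and under flooding those of ATL13, ATL15 and ATL55, were the 8 lost under a setting other than leaving out a sample. The cause of these shifts was not tested.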
